A study of Mus musculus with 25 samples.

Results

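The data described here are those of 8 genes that mark Kupffer cells, the resident macrophages of the liver: Vsig4, Clec4f, Timd4, Cd5l, Marco, Cd163, Folr2 and Slc40a1. They were chosen by name and matched by the gene symbols of the array's annotation. All 8 were found, with 10 probe sets between them, among 18193 genes with a probe set of a single symbol.

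RNA of 25 mouse samples in 10 groups was hybridised to Affymetrix Mouse 430 2.0 arrays, and levels are log2 signals per probe set. Liver came from C57BL/6J mice as fetal liver at E14.5 (n = 2) and adult liver (n = 2). For adult liver the labels conflict, giving both fresh liver at 8 weeks and hepatocytes released by collagenase at 10 weeks. Induced macrophages were made from C10, a single pre-B cell line, by 100 nM estradiol with IL-3 and CSF-1 at 10 nM, as described in the labels of the scramble arrays. All of them had first received lentivirus and puromycin, with scramble, Ebf1 or Pou2af1 shRNA (n = 2 each). The other groups were iHeps, hepatocyte-like lines made from C57BL/6J embryonic fibroblasts (E13.5) with Foxa1 and Hnf4a retroviruses (n = 3), and iHeps with scramble or Cdx2 lentiviral shRNA and puromycin (n = 4 each). Engrafted iHeps (n = 2) were sorted by GFP 12 days after transplantation into colons of Rag2gammac-/- mice damaged by DSS, and colon crypts (n = 2) came from Rag2gammac-/- mice aged 8 weeks. Only the iHep lines are called independent in the labels. For all other groups nothing says that replicates were separate animals or cultures, so a p-value here speaks of the spread among these arrays, which may be technical.

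Kupffer cells line the liver sinusoids, where they take bacteria, dying cells and worn red cells out of the blood, and they return the iron of those red cells to the circulation. The first of them settle in the fetal liver, which is at that time the main site of blood formation, and they acquire their adult gene program in contact with hepatocytes, stellate cells and sinusoidal endothelium. Vsig4 is a complement receptor that captures bacteria, Clec4f a galactose-binding lectin, Marco and Cd163 scavenger receptors (Cd163 for haptoglobin-bound haemoglobin), Timd4 a receptor for phosphatidylserine on dying cells, Cd5l a secreted scavenger protein, Folr2 a folate receptor and Slc40a1 (ferroportin) the iron exporter.

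The RefSeq table of promoters (build GRCm38.p6) held 7 of the 8 genes in 8 windows, of which the 250 bases before the start were searched on both strands. The 4 genes with an entry whose group means spanned the widest range are printed 5′ to 3′ in the direction of the gene, with each match to GAGGAA or its reverse complement TTCCTC in capitals. GAGGAA is the core of the sites of PU.1, the factor that macrophages share with B cells.

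Vsig4, chrX:96293439-96293688, minus strand: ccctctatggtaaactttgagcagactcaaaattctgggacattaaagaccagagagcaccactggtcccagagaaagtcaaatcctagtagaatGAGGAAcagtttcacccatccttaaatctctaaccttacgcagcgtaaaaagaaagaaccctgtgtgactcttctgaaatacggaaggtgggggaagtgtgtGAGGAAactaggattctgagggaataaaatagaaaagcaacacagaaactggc

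Cd5l, chr3:87357631-87357880, plus strand: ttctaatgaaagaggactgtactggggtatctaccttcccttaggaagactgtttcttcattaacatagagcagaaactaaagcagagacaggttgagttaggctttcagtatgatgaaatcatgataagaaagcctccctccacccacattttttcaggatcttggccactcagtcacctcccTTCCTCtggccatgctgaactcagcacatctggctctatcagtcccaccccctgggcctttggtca

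Cd163, chr6:124304401-124304650, plus strand: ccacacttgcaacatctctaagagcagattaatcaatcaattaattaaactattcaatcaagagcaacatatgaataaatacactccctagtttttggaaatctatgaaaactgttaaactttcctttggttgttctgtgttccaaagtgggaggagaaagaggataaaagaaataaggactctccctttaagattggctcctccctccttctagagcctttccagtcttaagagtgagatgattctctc

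Clec4f, chr6:83656117-83656366, minus strand: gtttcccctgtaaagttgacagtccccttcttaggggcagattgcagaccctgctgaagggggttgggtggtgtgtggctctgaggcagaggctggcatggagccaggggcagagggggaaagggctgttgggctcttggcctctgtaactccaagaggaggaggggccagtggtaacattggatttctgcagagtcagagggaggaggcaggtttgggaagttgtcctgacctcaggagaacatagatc

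The Vsig4 window held 2 matches, 155 and 53 bases before the start, and the Cd5l window 1 match, 66 bases before it on the opposite strand. The windows of Cd163 and Clec4f held none, and that of Marco held 1. In all, 3 of the 8 windows held the core, as did 23.3% of 32851 promoter windows of the same length. The MAF motif TGCTGA was in 5 of the 8 windows (16.1% of all), the antioxidant response core TGANNNNGC in 5 (35.2% of all) and the C/EBP motif TTGCNNAA in none (9.56% of all). Matches to different motifs could overlap, and a match is a description of these letters, not a bound site.

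What the adult liver arrays held is not settled: one label gives fresh liver at 8 weeks, another hepatocytes released by collagenase at 10 weeks. Both arrays held hepatocyte genes at a mean of 13.12 and 13.32 over 11 genes. They also held 18 genes common to macrophages at 10.41 and 8.72, and 12 genes of the sinusoidal endothelium at 8.95 and 8.39. The adult arrays also stood apart from each other. All 8 markers were higher on adult array 1 than on adult array 2, by 0.54 (Slc40a1) to 3.28 (Marco) with a median of 2.01. Of the 18 macrophage genes 17 were higher on adult array 1, with a median difference of 1.93, against -0.01 over 13840 genes measured in liver. Hepatocyte genes had a median of -0.27. On the fetal arrays the markers differed less, by -0.13 to -1.79 (fetal array 1 minus 2). In bulk samples fewer cells of a type and less RNA per cell cannot be told apart, and this holds for every difference below.

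Between fetal and adult liver the 8 markers parted ways. Vsig4, Clec4f and Cd163 were much lower in fetal liver, Marco was higher, and Timd4, Cd5l and Slc40a1 did not pass the test. Folr2 passed it narrowly, as lower in fetal liver. In limma's test with Benjamini-Hochberg adjustment over 14691 genes (adjusted p under 0.05), 4 of 8 markers were lower, where 24.8% of all genes were, and 1 was higher, where 38.5% were. All 8 entered the test, which asked for signal above the 40th percentile of the array (5.52 to 5.80) on at least 2 arrays. Vsig4, Timd4, Cd5l and Cd163 met this only through the liver arrays, so they could enter only where liver was high, while Clec4f, Marco, Folr2 and Slc40a1 also met it on induced macrophage arrays. Cd163 met it on the 2 adult liver arrays alone, so it could enter only where adult liver was high. Its call as lower in fetal liver was thus largely set by the filter.

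Vsig4 was at 5.71 and 7.50 in fetal liver and at 12.34 and 10.02 in adult liver. The groups did not overlap, and fetal array 1 was barely above the 40th percentile. The difference, fetal minus adult, was -4.57 ± 0.69 on the log2 scale (SE, adjusted p = 0.000215, limma), a level 23.8-fold lower. This SE pools the spread of liver and induced macrophage arrays. The SD of Vsig4 was 1.27 in fetal and 1.64 in adult liver, but 0.015 to 0.042 in the induced macrophage groups. The SE and p-value thus understate the spread between liver arrays. The same holds for other markers whose liver arrays spread more than their induced macrophage arrays, such as Marco. Clec4f was at 8.39 and 8.997 in fetal liver and at 12.54 and 10.73 in adult liver, also without overlap, and well above the 40th percentile in both. It was lower in fetal liver by -2.94 ± 0.47 (adjusted p = 0.00034, limma). Leaving out 1 array at a time gave -5.73 to -3.41 for Vsig4 and -3.85 to -2.04 for Clec4f.

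Cd163 was at 3.85 and 5.09 in fetal liver, under the 40th percentile on both arrays, and at 10.34 and 8.39 in adult liver. It differed by -4.90 ± 0.57 (adjusted p = 3.41e-05, limma), which is no exact size because the fetal value is at background. Of the blood proteins of the same pathway, haptoglobin (Hp) was lower in fetal liver by -2.39 ± 0.23 and haemopexin (Hpx), which binds free haem, by -4.35 ± 0.27.

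Folr2 was at 7.22 and 8.05 in fetal liver and at 9.62 and 7.95 in adult liver. The groups overlapped: adult array 2 lay below fetal array 2. The difference was -1.15 ± 0.45 (adjusted p = 0.0473, limma), and without adult array 1 it was -0.32 (adjusted p = 0.378). The call was also lost without fetal array 1, at -0.74, and without any 1 of the 6 induced macrophage arrays of the model, with the difference itself unchanged.

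Marco ran the other way. It was at 9.71 and 10.43 in fetal liver and at 9.37 and 6.09 in adult liver, so that adult array 1 came close to the fetal arrays and adult array 2 lay far below them. The difference was 2.34 ± 0.78 (adjusted p = 0.0246, limma), and its size rested on adult array 2, without which it was 0.70 (adjusted p = 0.0517). The call was also lost without fetal array 1 (2.70) or fetal array 2 (1.98). The other probe set of Marco (1458297_s_at) was at 7.92 and 8.59 in fetal liver and at 7.75 and 6.05 in adult liver, a difference of 1.35 ± 0.44 (adjusted p = 0.0202 in limma's fit of single probe sets).

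Timd4 was at 7.80 and 8.28 in fetal liver and at 7.99 and 5.82 in adult liver, and adult array 1 lay between the fetal arrays. It differed by 1.14 ± 0.54 (adjusted p = 0.092, limma), and by 2.22 without adult array 1, which passed. Cd5l was at 10.44 and 10.82 in fetal liver and at 11.29 and 9.22 in adult liver, with the fetal arrays between the adult ones. Its difference was 0.38 ± 0.50 (adjusted p = 0.54, limma), with a 95% interval of -0.75 to 1.51. It turned with the adult array used, to 1.41 without array 1 (adjusted p = 0.000244) and to -0.66 without array 2 (adjusted p = 0.0172).

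Slc40a1 was at 11.84 and 11.97 in fetal liver and at 12.72 and 12.17 in adult liver, high on all 4 arrays. The difference was -0.54 ± 0.25 (adjusted p = 0.0888, limma), with a 95% interval of -1.10 to 0.03, and without adult array 2 it was -0.81 (adjusted p = 0.0245). Its other probe set (1448566_at) was at 10.17 and 10.47 in fetal liver and at 10.14 and 8.63 in adult liver and pointed the other way, at 0.93 ± 0.43 (adjusted p = 0.0871 in the fit of single probe sets). The direction for Slc40a1 therefore depended on the probe set, and neither passed.

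**Figure D1:**
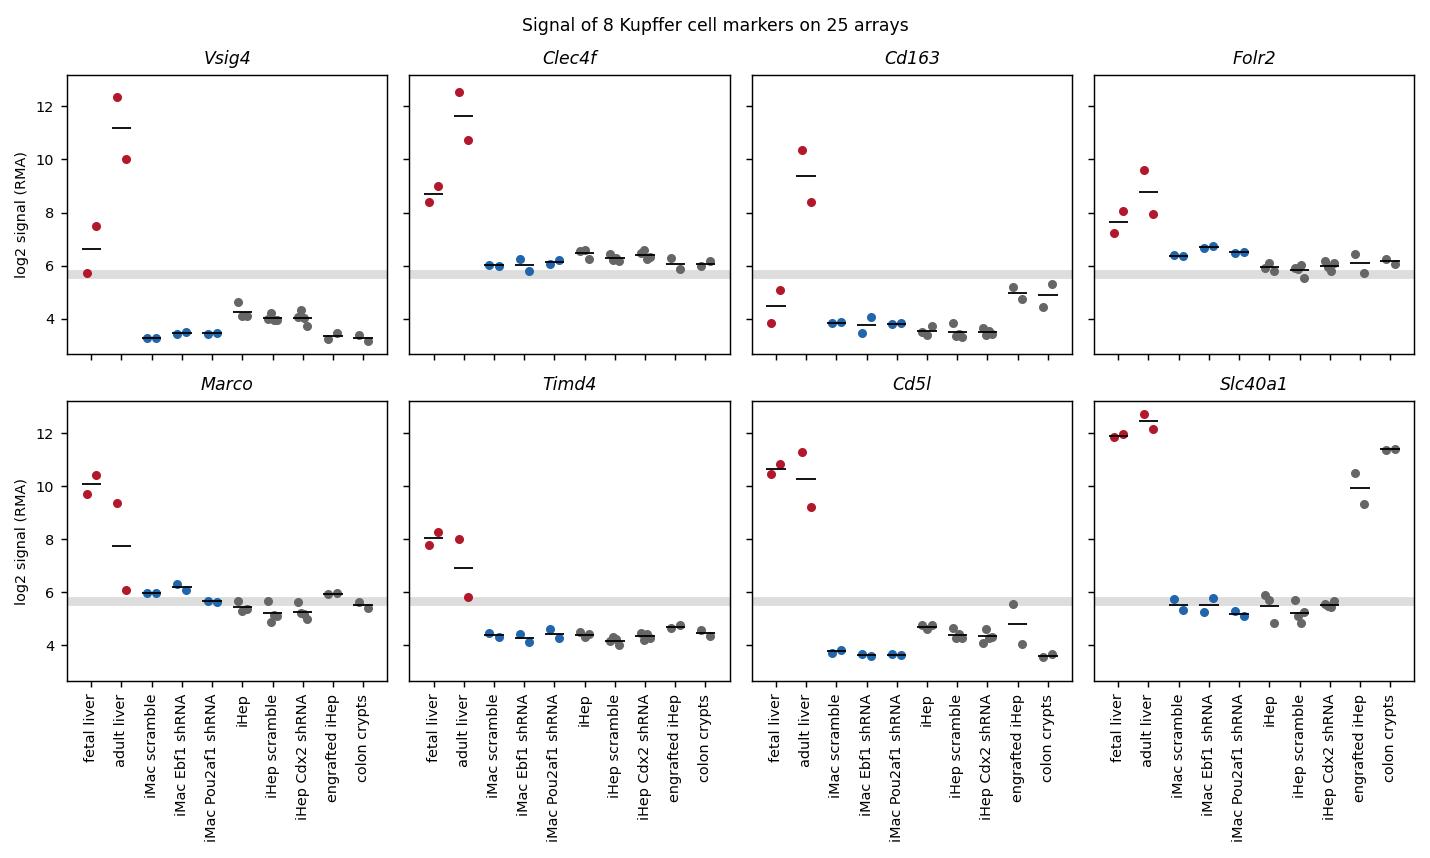
Log2 signal of the leading probe set of each of the 8 markers (vertical axis) on the 25 arrays, by group. Points are arrays, black lines group means, red the liver, blue the induced macrophages and grey the other groups; the grey band is the range of the arrays' 40th percentiles, 5.52 to 5.80. On the 21 arrays that are not liver, Vsig4, Timd4, Cd5l and Cd163 lie below the 40th percentile of their own array (Cd5l on engrafted array 1, at 5.56, reaches the band), and Slc40a1 is also high in colon and engrafted iHeps.

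Each marker was also set against the mean of the 18 macrophage genes on the same array, where only the change from array to array has a meaning. Vsig4 minus that mean was -4.24 and -2.84 in fetal liver and 1.93 and 1.30 in adult liver, so the adult arrays lay closer together than in the signal itself. Cd163 was at -6.11 and -5.26 in fetal liver against -0.06 and -0.32 in adult liver, and Clec4f at -1.56 and -1.35 against 2.13 and 2.02. Folr2 was at -2.73 and -2.30 in fetal liver and -0.79 and -0.76 in adult liver. On this scale fetal and adult arrays did not overlap for any of the 8 markers, although Folr2, Timd4 and Cd5l overlapped in the signal. The share of all genes that separate on this scale is not given, so nothing is read from this. Marco was at -0.24 and 0.09 in fetal liver and -1.03 and -2.63 in adult liver, and Timd4 at -2.15 and -2.06 against -2.42 and -2.90. Slc40a1 was at 1.89 and 1.63 against 2.31 and 3.46, and Cd5l changed least, from 0.49 and 0.48 to 0.88 and 0.51. The same array means were subtracted from all 8 markers, so their changes on this scale do not stand apart from each other. Of the 18 genes themselves, 6 were higher in fetal liver (38.5% of all genes) and 1 was lower (24.8% of all genes). Among the higher were Itgam (3.44 ± 0.34), Tyrobp (2.03 ± 0.57) and Cd53 (1.94 ± 0.45), which granulocytes and monocytes also express. The lower was Mertk (-1.98 ± 0.21). Granulocyte genes were at a mean of 11.99 and 12.43 in fetal liver and 7.53 and 6.46 in adult liver over 8 genes. Erythroid genes were at 11.21 and 11.22 against 6.63 and 6.35 over 9 genes. The part of these cells in the differences was not tested.

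**Figure D2:**
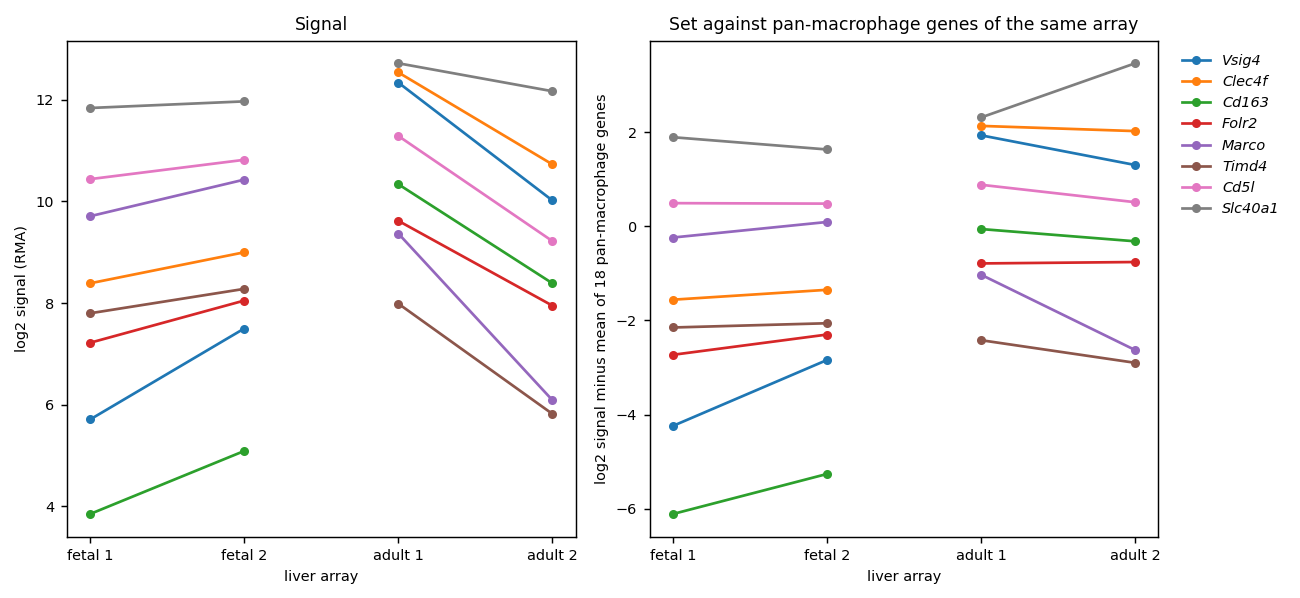
The 8 markers on the 4 liver arrays: left, log2 signal; right, log2 signal minus the mean of 18 macrophage genes of the same array. Lines join the arrays of 1 group; on the right only changes between arrays have a meaning, since the offset of each line depends on its probe set. All 8 markers fall from adult array 1 to adult array 2 on the left, while on the right the Clec4f and Folr2 lines are nearly level.

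Other genes of the Kupffer cell program were counted in the same comparison, by lists drawn up with earlier results of these data known. Of 11 transcription factors, 7 were higher and 4 lower in fetal liver (38.5% and 24.8% of all genes), with a median of 1.36 against 0.18 over all genes. Tfec was higher by 3.67 ± 0.23, while Nr1h3 (LXR alpha), Id3 and Rxra were lower by -1.93 ± 0.23, -1.89 ± 0.21 and -1.85 ± 0.27. Genes were named by size of change, so the lower ones named do not stand for the list, most of which was higher. Of 13 further Kupffer cell genes, 4 were lower (24.8% of all genes): the complement genes C2 (-3.14 ± 0.23) and C6 (-1.80 ± 0.43), Hpgd (-1.81 ± 0.19) and Stab1 (-0.70 ± 0.24). Clec1b (1.12 ± 0.57, adjusted p = 0.112, limma) and Mrc1 (-0.89 ± 0.52, adjusted p = 0.166, limma) did not pass. Hepatocytes also make C2 and C6, and hepatocyte genes were lower in fetal liver in 10 of 11 cases (24.8% of all genes), with a median of -5.46. The part of hepatocytes in the C2 and C6 differences was not tested.

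Of 17 genes of iron and haem recycling around Slc40a1, 8 were higher and 6 lower in fetal liver (38.5% and 24.8% of all genes), with a median of 0.20 against 0.18 over all genes. Ceruloplasmin (Cp), the ferroxidase that works beside ferroportin, was lower by -5.20 ± 0.23, the iron importer Slc39a14 by -5.20 ± 0.28 and Lrp1, the receptor for haem bound to haemopexin, by -3.82 ± 0.20. Biliverdin reductase B (Blvrb) was higher by 4.20 ± 0.20. Hamp, which encodes hepcidin, the hormone that removes ferroportin from the cell surface, was at a mean of 6.04 ± 0.23 (SD, n = 2) in fetal and 12.78 ± 0.55 (SD, n = 2) in adult liver. It was lower by -6.74 ± 0.32, against -0.54 ± 0.25 for Slc40a1 itself. Of the 10 ligands and partners of the markers tested, 2 were higher and 5 lower (38.5% and 24.8% of all genes). Gas6, a bridge between dying cells and Mertk, was lower by -2.78 ± 0.30.

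Most of the 8 markers were lower in the induced macrophages than in liver. Against adult liver 7 of 8 were lower in the scramble cells (31.5% of all genes), and against fetal liver 7 of 8 (33.8% of all genes). Vsig4, Timd4, Cd5l and Cd163 were in the test only through liver and had to differ from at least 1 liver group, so these counts support nothing about the 8 as a set. Cd163 against fetal liver did not pass (-0.62 ± 0.57, adjusted p = 0.355, limma) and was at background on both sides. Marco against adult liver did not pass with its leading probe set (-1.76 ± 0.78, adjusted p = 0.0649, limma), and the value ran from -0.11 without adult array 1 to -3.40, which passed, without adult array 2. Its other probe set was lower (-1.38 ± 0.44, adjusted p = 0.0145 in the fit of single probe sets). On the Ebf1 shRNA arrays Marco, at 6.32 and 6.10, lay just above adult array 2, at 6.09. Both comparisons use the same induced macrophage arrays, and cell source and experiment cannot be told apart in them.

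Vsig4 was at 3.26 and 3.29 in scramble induced macrophages, Cd5l at 3.73 and 3.84, Cd163 at 3.82 and 3.87 and Timd4 at 4.48 and 4.32. These 4 were under the 40th percentile on all 6 induced macrophage arrays. Their differences from adult liver were -7.90 ± 0.69 (Vsig4), -6.47 ± 0.50 (Cd5l), -5.52 ± 0.57 (Cd163) and -2.50 ± 0.54 (Timd4), and background sets a limit to their size.

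Slc40a1 was at 5.73 and 5.32 in scramble induced macrophages, about the 40th percentile, and its other probe set was between 3.45 and 4.34 on the 6 arrays. It was lower than in adult liver by -6.92 ± 0.25 (adjusted p = 1.13e-08, limma) and lower than in fetal liver by -6.38 ± 0.25 (adjusted p = 3.98e-08, limma). No induced macrophage array came within the range of either liver.

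Clec4f was at 6.02 and 5.99, Marco at 5.99 and 5.96 and Folr2 at 6.39 and 6.37, all somewhat above the 40th percentile. The 11 cultured iHep arrays ran from 6.17 to 6.58 for Clec4f, from 4.87 to 5.69 for Marco and from 5.52 to 6.17 for Folr2. The scramble values lay a little below this range for Clec4f and a little above it for Marco and Folr2. Whether these signals are more than background was not tested. Clec4f was lower than in adult liver by -5.63 ± 0.47 and than in fetal liver by -2.69 ± 0.47. Marco was lower than in fetal liver by -4.09 ± 0.78 and Folr2 by -1.25 ± 0.45 (adjusted p = 0.0329, limma). The Folr2 call against fetal liver was lost without either scramble array or without fetal array 2 (-0.84).

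**Figure D3:**
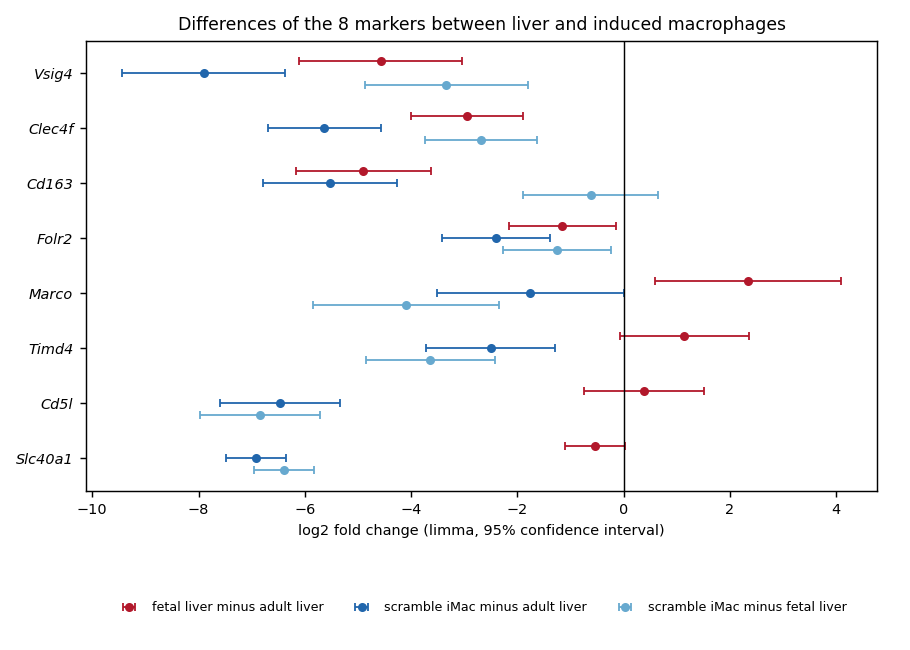
Log2 fold changes of the 8 markers (horizontal axis) for fetal minus adult liver and for scramble induced macrophages minus each liver. Points are limma estimates and bars 95% confidence intervals. Vsig4, Clec4f and Cd163 lie left of 0 and Marco right of it for fetal minus adult liver; all estimates for induced macrophages lie left of 0, with the intervals of Cd163 against fetal liver and Marco against adult liver reaching 0.

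The same arrays held many other macrophage genes at high levels. In scramble induced macrophages the 18 macrophage genes had a mean of 10.07 and 9.97, within the range of the liver arrays (8.72 to 10.41). Csf1r, the receptor for CSF-1, was at 13.08 ± 0.14 (SD, n = 2), against 12.64 ± 0.91 (SD, n = 2) in adult liver. Of the 18, 5 were under the 40th percentile on both scramble arrays: C1qa, C1qb, C1qc, Mertk and Adgre1 (F4/80). Against adult liver, 11 of the 18 were higher (44.2% of all genes), among them Cd14 (5.99 ± 0.51), and 5 were lower (31.5% of all genes). Among the lower were C1qa (-6.77 ± 0.53), C1qb (-5.79 ± 0.58) and Mertk (-5.72 ± 0.21), sizes that background in the induced macrophages limits. C1q and Mertk serve the uptake of dying cells.

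The regulators split too. Of 11 in scramble cells, 6 were higher and 5 lower than in adult liver (44.2% and 31.5% of all genes). Against fetal liver 7 were higher and 3 lower (31.9% and 33.8% of all genes). Spi1, which encodes PU.1, was higher in the induced macrophages than in adult liver by 4.76 ± 0.31, Tfec by 4.31 ± 0.23 and Rbpj by 3.87 ± 0.17, while Maf was lower by -6.50 ± 0.34. Spic, a factor of macrophages that recycle iron, was lower than in fetal liver by -2.70 ± 0.32. Of 13 further Kupffer cell genes, 2 were higher and 9 lower than in adult liver (44.2% and 31.5% of all genes). Against fetal liver 2 were higher and 10 lower (31.9% and 33.8% of all genes). Mrc1 (-5.51 ± 0.52), C2 (-5.15 ± 0.23) and Clec1b (-4.33 ± 0.57) had the widest gaps below adult liver, and Cfp (2.71 ± 0.65) was higher than in fetal liver. Of 17 genes of iron and haem recycling, 7 were higher and 6 lower than in adult liver (44.2% and 31.5% of all genes). Haem oxygenase (Hmox1), which frees the iron that Slc40a1 exports, was among the higher, by 3.27 ± 0.36.

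**Figure D4:**
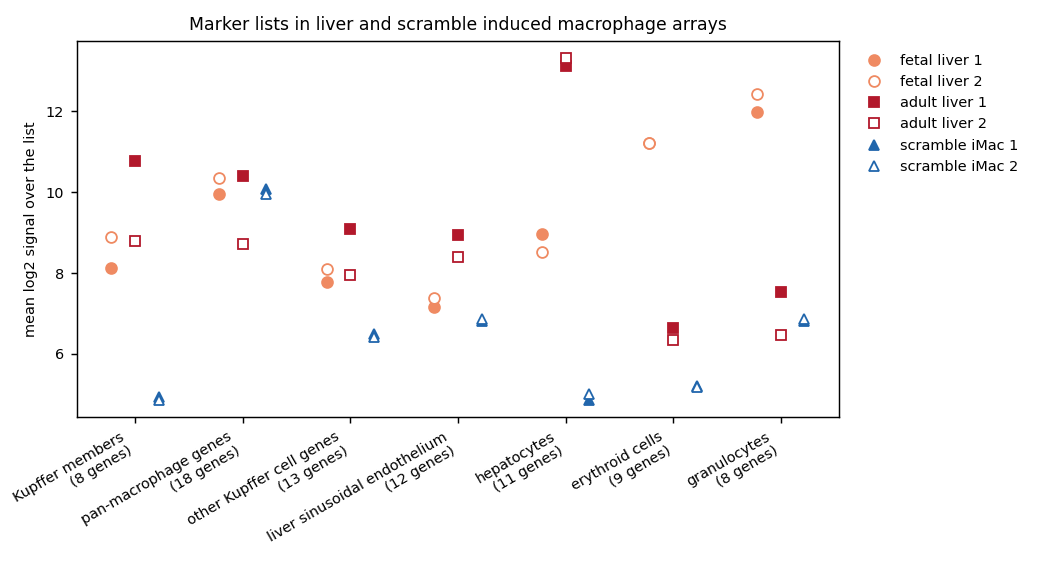
Mean log2 signal of the 8 markers and of 6 lists of cell type genes (vertical axis) on each of the 4 liver and 2 scramble induced macrophage arrays. Each symbol is 1 array; numbers of genes stand under each list. The markers lie at 4.87 to 4.93 in induced macrophages and 8.12 to 10.78 in liver, while the macrophage genes lie between 8.72 and 10.41 on all 6 arrays.

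With shRNA against Ebf1 or Pou2af1, both factors of the B cell lineage from which the cells were made, no marker passed against scramble shRNA. Ebf1 was 1 of 8 pre-B cell genes tested, of which 0 passed as lower and 2 as higher with Ebf1 shRNA. A fall of Ebf1 itself was therefore not called, which limits what the absence of a change can say. In limma's test 0 of 8 markers passed for Ebf1 against scramble shRNA (2.9% of all genes), with differences of -0.16 to 0.34. For Pou2af1 against scramble shRNA it was 0 of 8 (2.08% of all genes), with -0.33 to 0.17, and for Ebf1 against Pou2af1 shRNA 0 of 8 (4.83% of all genes), with -0.17 to 0.54. At an unadjusted p under 0.05 the count was 0 in each. The 95% intervals reached from -2.06 to 2.30, because the spread came in part from the liver arrays. A fit of the 6 induced macrophage arrays alone was added after the data were seen. In it Marco was higher with Ebf1 than with Pou2af1 shRNA by 0.54 (adjusted p = 0.0225, limma), at 5.65 to 6.32 over the 6 arrays. Its other probe set had means of 5.66 and 5.40, about the 40th percentile. For either shRNA against scramble, 0 of the 4 markers tested passed. The share of all genes called in this fit is not given, so nothing is read from these counts.

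Among the groups without liver tissue, Slc40a1 was the 1 marker with a clear level. It was at 11.38 and 11.41 in colon crypts and at 10.51 and 9.34 in engrafted iHeps, against 4.85 to 5.89 on the 11 cultured iHep arrays. Ferroportin is also the exporter that carries iron out of enterocytes. Its other probe set kept this order, with 10.72 and 10.87 in colon and 9.81 and 7.65 in engrafted iHeps. The difference of colon from adult liver was -1.05 ± 0.43 (adjusted p = 0.0571, limma) and did not pass, while the other 7 markers were lower in colon (24.8% of all genes), 4 of them tested only through liver.

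Engrafted iHeps had more Slc40a1 than the cultured iHep lines, by 4.44 ± 0.39 (adjusted p = 2.4e-05, limma), the only marker of 8 to pass (48% of all genes). They had less than colon, by -1.47 ± 0.43 (adjusted p = 0.0448, limma), again the only marker of 8 (16.8% of all genes). The second call was lost without engrafted array 2 (-0.88) and without 7 other arrays taken 1 at a time. Macrophage genes differed between the engrafted arrays: Csf1r was at 4.04 on array 1 and 9.74 on array 2, and the 18 genes had means of 6.10 and 8.31. Slc40a1 was the higher on array 1, where Csf1r was the lower. Colon held Csf1r at 9.07 and 9.19, with Vsig4 at 3.14 to 3.39.

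Cultured iHeps were lower than adult liver for all 8 markers (18.2% of all genes), of which Vsig4, Timd4, Cd5l and Cd163 entered this model only through liver, so nothing is read from the count. Marco was the least firm, at -2.28 ± 0.73 and at -0.64 without adult array 1. With Cdx2 shRNA, 0 of the 4 markers tested differed from scramble in limma's test (2.21% of all genes), also at an unadjusted p under 0.05, with differences of 0.05 to 0.31.

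Across the 10 group means the patterns of the markers other than Slc40a1 were set mainly by the 2 liver groups, where each had its highest level. Slc40a1 was also high in colon (11.39) and engrafted iHeps (9.93), which shaped its pattern too. Vsig4 and Clec4f were the most alike (Pearson r = 0.996), followed by Timd4 with Cd5l (0.971) and with Marco (0.964), and Marco and Cd163 the least (0.417). Among 9951 genes whose group means spanned at least 2 log2 units, those most like Vsig4 were Apcs, Saa4 and Clec4g (0.997 each), and those most like Cd163 were Hpn (0.997), Slc10a1 and Acaa1b (0.991 each). Marco was most like Spic (0.979), Alas2 (0.973) and Hbb-b2 (0.965), Timd4 most like Clec1b (0.985), Btla (0.984) and Alas2 (0.972), and Cd5l most like Reln (0.991), Dnmt3b (0.988) and Cd59a (0.987). Clec4f was most like Meiob (0.998), Lect2 (0.997) and Elovl2 (0.996), Folr2 most like Fabp1 and Slc26a1 (0.991 each) and Ambp (0.990), and Slc40a1 most like Smpdl3a (0.986), Msra and Plbd1 (0.972 each). These are descriptions over 10 points, and genes of hepatocytes, endothelium and red cells share the contrast between fetal and adult liver.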

How the data were processed

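The authors deposited 1 log2 signal for each probe set and array, made with RMA per the submitters' processing notes, which name no version. Amplification started from 100 ng of total RNA, per the labels' protocols. Signals ran from 2.05 to 15.11 with column medians of 6.11 to 6.30, and no 2 columns were identical. The number of arrays, 25, limits the precision.

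Of 45101 probe sets, 34945 had 1 symbol in the platform annotation, and each of 18193 genes was read from whichever of its probe sets was highest on average over the 25 arrays. Genes above the 40th percentile of their array on at least 2 arrays of a model were tested by lmFit and eBayes of limma 3.58.1 on group means, in R 4.3.3. Benjamini-Hochberg adjustment ran over the genes of each of 11 comparisons, two-sided, adjusted p under 0.05, with no minimum fold. Liver and induced macrophages formed 1 model (10 arrays, 14691 genes), liver, colon and iHeps another (11 arrays, 15262 genes), and iHep shRNA arrays the last (8 arrays, 13650 genes). The code was tested on simulated data. Errors are limma's standard errors (SE) unless marked SD. Plots used matplotlib 3.10.9 in Python 3.11.15.

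Same-numbered arrays of the iHep shRNA model deviated together (correlations 0.457, 0.250, 0.504 and 0.381), so their numbers, given in the titles, were taken to pair them; those of the other models did not. Results given are from the fits without this block, which changed no marker's call in the iHep shRNA model. Centring arrays on their medians moved all differences by 0.11 for fetal against adult liver, 0.16 for iHep against adult liver and -0.11 for engrafted against cultured iHeps.

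The members and the 16 gene lists were chosen with earlier results of these data known. Besides the members, up to 4 genes of a list past the threshold and 2 not past it were open to naming, by size of change. Alternatives were the filter, the use of probe sets, normalization, the variance model, the arrays in the fit, a minimum fold, the replicate block and leaving out each array.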

Additional observations from a re-analysis of the deposited data

Results flagged for a closer look

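Vsig4 on the scramble shRNA iHep arrays was flagged because 1 of the 4 arrays stood apart: it was at 4.22, the nearest other array at 3.97, and the gap was 0.98 of the whole range. Of 20 groups checked this was 1, and chance gives about 5%. All 4 values were under the 40th percentile of their arrays.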

How the results depend on the processing

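Adult array 1 or 2, and in places fetal array 1, decided several values given above, and with 2 arrays a group the precision is low. Vsig4 and Clec4f kept their call for fetal against adult liver under every setting in which they were tested. Cd163 did so too, but under the main filter it entered only through the adult arrays, where it was high. With an adult array left out it did not pass the filter, so its unchanged call is weak support. Of the values of single markers under the alternatives that keep all arrays, 456 kept direction and call, 9 lost the call, 6 gained it and 2 reversed; the cause was not tested. With probe sets averaged per gene, Slc40a1 reversed to 0.20 for fetal minus adult liver and to 0.18 for colon minus adult liver. Cd5l ranged from -0.66, reversed, without adult array 2 to 1.41 without adult array 1. For Ebf1 against Pou2af1 shRNA, 1 marker passed with the 6 induced macrophage arrays alone, a fit with fewer genes and arrays. For engrafted iHeps against colon, 0 passed with repeated quantile normalization and 2 with all 25 arrays in 1 model, and for engrafted against cultured iHeps 2 passed under each of these settings. Leaving out 1 array at a time gave 3 to 5 markers for fetal against adult liver (3 without fetal array 1), 6 to 7 for induced macrophages against either liver, 6 to 8 for iHeps and 5 to 8 for colon against adult liver, 0 to 1 for engrafted iHeps against colon, 1 for engrafted against cultured iHeps and 0 for the shRNA comparisons. With the replicate number as a block, Folr2 lost its call for fetal against adult liver (-1.15, adjusted p = 0.0607, limma), Marco lost its call for iHeps against adult liver (-2.25, adjusted p = 0.0507, limma) and Slc40a1 gained one for colon against adult liver (-1.05, adjusted p = 0.0316, limma). A fit with the fetal numbers crossed was added after the fetal and adult deviations were seen to correlate at -0.138. In it 6 markers passed against 5. The crossing was chosen from these same data, so nothing is read from the added call.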
